A study of Homo sapiens with 6 samples.

Results

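Across the 6 libraries of this experiment, 56419 separate sites of open chromatin were found, and 2313 of them (4.10%) were intergenic sites that every library shared. These 2313 sites, called members here, are described in depth. They were chosen by position and by presence. Each summit, the highest point of a called peak, was extended by 250 bp on each side, and overlapping windows were merged. A merged site was kept if all 6 libraries had a summit in it, if its midpoint lay over 10 kb from every annotated transcript start and in no gene body, and if it was on chromosomes 1 to 22. Of the 16314 sites found in all 6 libraries, 5420 lay in no gene body, 2377 of those were over 10 kb from a start site, and 2313 remained on chromosomes 1 to 22.

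MDA-MB-231 is a long-established human cell line of triple-negative breast cancer. Its parental cells and the knockout line SAP30-KO1 gave 3 ATAC-seq libraries each. In ATAC-seq a transposase cuts accessible DNA and leaves sequencing adapters there. SAP30-KO1 was made from the same line with CRISPR/Cas9 and, as the study describes its knockout lines, mixes several single knockout cells that were selected and expanded. Cells of those knockout lines were treated with puromycin during selection, per the methods of the study. The labels do not say whether libraries of a group came from separate cultures, so p-values measure only the spread between these libraries.

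Open sites far from genes include enhancers, stretches of DNA that raise transcription of distant genes when transcription factors bind them. AP-1 dimers of FOS and JUN proteins and the TEAD factors, through which YAP and TAZ act, occupy many such sites in mesenchymal breast cancer cells. SAP30 is a subunit of the SIN3 complex, which recruits histone deacetylases and is best known at promoters.

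The libraries held 29762 to 40650 summits. Each summit carries a score, the −log10 of the q value from the peak caller of the authors. Since each list was called alone, the score was ranked within its list, from 0 for the weakest summit to 100 for the strongest, and this percentile is the level used throughout. Read depth is unknown. Vimentin, CD44, EGFR and CAV1, genes of basal and mesenchymal cells, had a summit at the promoter in 6 of 6 libraries, and AXL in 3. The luminal genes ESR1 and PGR had one in 1 library each, FOXA1 in 2 and GATA3, another luminal factor, in 5.

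The 200 bases around the midpoint of 8 members are printed first, because they show the kinds of sequence that the strongest members and the members that differed between the groups consist of. Coordinates and the plus strand are those of GRCh37 (hg19), and each site is named by its nearest protein-coding gene. The first pair are the highest-ranked members of all, and capitals mark the longest run of bases, 41, that both stretches share.
FAM72B, chr1:121485004-121485203: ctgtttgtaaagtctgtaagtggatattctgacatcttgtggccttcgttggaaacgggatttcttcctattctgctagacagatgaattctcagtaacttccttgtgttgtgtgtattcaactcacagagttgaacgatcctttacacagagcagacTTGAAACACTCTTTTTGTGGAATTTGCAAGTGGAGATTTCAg
ZNF722, chr7:61969060-61969259: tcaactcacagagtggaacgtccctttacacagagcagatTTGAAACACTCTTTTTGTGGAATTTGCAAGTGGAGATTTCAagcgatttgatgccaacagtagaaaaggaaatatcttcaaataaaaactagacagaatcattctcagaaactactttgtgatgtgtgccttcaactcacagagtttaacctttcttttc
The next 3 are also among the 10 highest-ranked members. Here, and in the pair of sites after them, capitals mark the AP-1 motif TGANTCA and the TEAD motif GGAATG on either strand.
OTOL1, chr3:161572200-161572399: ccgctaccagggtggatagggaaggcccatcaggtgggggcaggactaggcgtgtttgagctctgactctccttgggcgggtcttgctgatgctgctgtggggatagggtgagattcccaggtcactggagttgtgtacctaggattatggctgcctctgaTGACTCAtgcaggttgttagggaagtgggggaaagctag
P3H2, chr3:189655495-189655694: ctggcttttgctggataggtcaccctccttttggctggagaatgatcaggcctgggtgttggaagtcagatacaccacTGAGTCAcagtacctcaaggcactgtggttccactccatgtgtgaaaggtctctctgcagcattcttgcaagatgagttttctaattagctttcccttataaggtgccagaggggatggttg
FBN2, chr5:127563729-127563928: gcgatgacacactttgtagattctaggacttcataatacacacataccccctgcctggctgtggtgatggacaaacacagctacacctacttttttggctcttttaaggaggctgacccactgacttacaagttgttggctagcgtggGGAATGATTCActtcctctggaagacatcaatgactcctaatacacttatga
The following pair of sites differed between the groups, the first being higher in SAP30-KO1 and the second lower.
ABCC9, chr12:22115346-22115545: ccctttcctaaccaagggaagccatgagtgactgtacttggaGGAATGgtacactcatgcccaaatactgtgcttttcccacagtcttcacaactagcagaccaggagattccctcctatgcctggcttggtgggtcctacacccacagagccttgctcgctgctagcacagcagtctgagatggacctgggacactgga
CEP126, chr11:101881916-101882115: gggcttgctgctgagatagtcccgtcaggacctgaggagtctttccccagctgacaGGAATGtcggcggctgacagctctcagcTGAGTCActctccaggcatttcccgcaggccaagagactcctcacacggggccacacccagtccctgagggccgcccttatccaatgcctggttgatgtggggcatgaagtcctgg
The last site was lower in SAP30-KO1. Capitals mark GGTTCGA, part of the internal promoter (B box) of tRNA genes, which this stretch holds on the minus strand. This motif was searched after the sequence had been seen.
TRIM27, chr6:28784923-28785122: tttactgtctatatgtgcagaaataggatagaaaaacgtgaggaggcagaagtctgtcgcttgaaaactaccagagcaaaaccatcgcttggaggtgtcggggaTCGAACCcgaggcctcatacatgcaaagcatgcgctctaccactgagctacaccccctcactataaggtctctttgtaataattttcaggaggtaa

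AP-1 motifs were the most frequent of the 8 motifs searched. In a window of 301 bp around the median summit, 1174 of 2313 members (50.8%) held TGANTCA. Among all sites of chromosomes 1 to 22 the share was 33.4%. Sites in gene bodies that all 6 libraries shared were close to the members, at 52.9% of 5705, whereas promoter sites were at 11.4% of 6925. A single AP-1 motif was present in 38.6% of members and 2 or more in 12.1%, up to 5 in 1 site. The form with a central G or C, TGAGTCA or its reverse TGACTCA, was in 41.8% of members, and the form with a central A or T in 13.2%.

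Of the other motifs, all but that of CTCF also differed in share between members and promoter sites. TEAD motifs (GGAATG) were in 29.7% of members, 28.8% of gene-body sites, 13.1% of promoter sites and 21.8% of all sites. AP-1 and TEAD motifs occurred together in 324 members (14.0%). RUNX (TGTGGTT), forkhead (TGTTTAC) and GATA factor motifs, the last written AGATAA, were in 13.5%, 7.74% and 15.2% of members, and in 3.83%, 2.50% and 4.51% of promoter sites. All sites held these motifs in 8.85%, 5.51% and 13.1% of cases. The order was the opposite for the motifs that mark promoters. SP/KLF motifs (GGGCGG) were in 9.81% of members, 65.6% of promoter sites and 22.8% of all sites, and ETS motifs (CCGGAA) in 5.06%, 25.6% and 9.08%. The core motif of CTCF, the factor that anchors chromatin loops, was in 1.56% of members and 1.47% of promoter sites, against 2.56% of all sites. The letters of the SP/KLF and ETS motifs are rich in G and C, and those of the GATA and forkhead motifs in A and T. The median GC content was 47.2% in members and 65.4% in promoter sites. None of the 8 motifs was found in 378 members (16.3%). These are descriptions of letters in a window and were not tested.

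**Figure D1:**
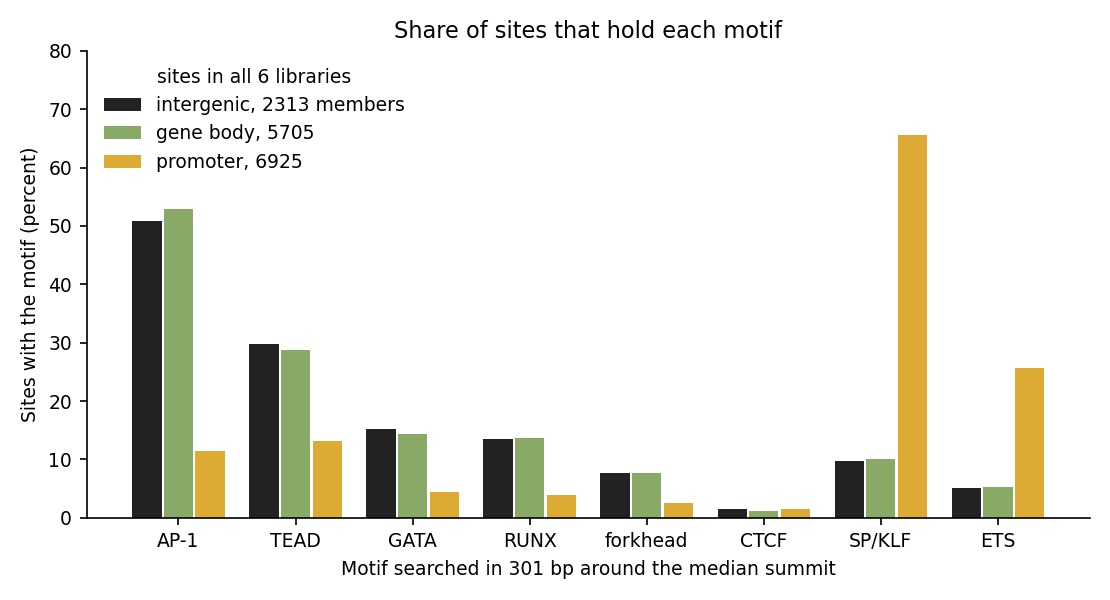
Percent of sites (y axis) whose 301 bp around the median summit hold each of 8 motifs (x axis), for 2313 intergenic members, 5705 gene-body sites and 6925 promoter sites, all found in all 6 libraries. Members and gene-body sites have near-equal bars, with AP-1 at 50.8% and 52.9%, while promoter sites reach 65.6% for SP/KLF.

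The AP-1 motif lay at the centre of the merged site rather than under the summits. Within 40 bp before the midpoint there were 4.19 motifs per kb of members, and 360 to 400 bp away on either side there were 0.454 and 0.411. GATA motifs were sparser at the midpoint, with 0.422 and 0.454 per kb in the 40 bp before and after it. At 360 to 400 bp before and after they reached 0.865 and 0.875. Around the summits of a single library the AP-1 pattern had a dip in the middle. In SAP30-KO1 replicate 2, for example, the density was 1.17 and 0.962 per kb in the 40 bp before and after the summit, but 2.46 and 2.57 per kb at 120 to 160 bp before and after it. In parental replicate 1 it was 1.38 and 1.23 at the summit and 2.05 and 2.62 at that distance. Summits of one member also differed in position between libraries. Of 34695 pairs of summits from the same member, 38.9% lay within 60 bp of each other and 29.8% were 200 to 400 bp apart, and the median range over the libraries of a member was 307 bp. A member held exactly 1 summit in every library in 1795 cases and more than 1 in some library in 518.

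**Figure D2:**
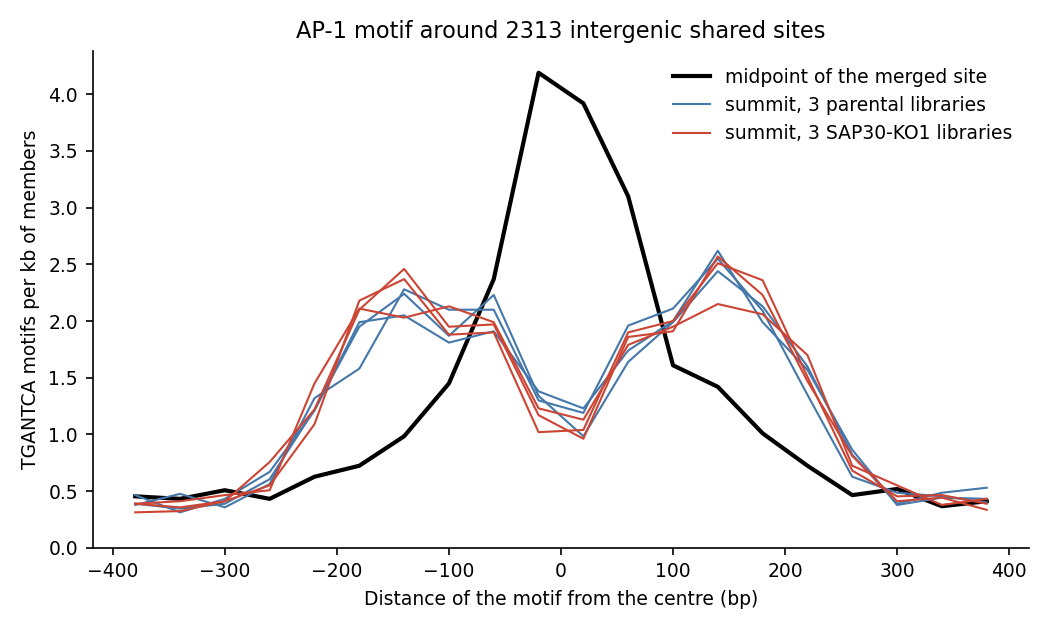
Number of TGANTCA motifs per kb of the 2313 members (y axis) against the distance in bp from a centre (x axis), in steps of 40 bp. The black line, centred on the midpoint of the merged site, peaks at 4.19 per kb, and the 6 thin lines, centred on the summits of each library, dip in the middle and peak on both sides.

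The rule kept only sites over 10 kb from every start site, so distances to genes are given as a description. The median distance of members to the nearest protein-coding start site was 82.1 kb, and 44.2% of members were over 100 kb away. The farthest was 2339 kb away. The nearest start site of any annotated transcript, which chose the members, was at a median of 29.4 kb. Just inside that limit were the sites near STC2 and GIPC1, at 10007 and 10023 bp, with mean percentiles of 64.7 and 31.3. Just outside were sites near SLC46A3 and SIAH1, at 9983 and 9995 bp, with 62.2 and 45.1. In all, 1488 protein-coding genes were nearest to a member, 1019 of them to a single one. Long stretches without genes gave the highest counts. DAOA, a gene tied to D-amino acid oxidase, was nearest to 9 members on chromosome 13, spread over 1605 kb. ARPP21, a neuronal phosphoprotein, was nearest to 8, FLRT2 and PCDH7, a pair of cell adhesion proteins, to 7 each, and SOX9 to 7.

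The members around SOX9, the factor that governs cartilage and several epithelial stem cells, spanned 564 kb on the side of chromosome 17 before the gene. They ranked from 44.1 to 87.4, with a median of 71.0. They averaged 71.8, 69.2 and 72.1 in parental and 56.8, 68.3 and 72.7 in SAP30-KO1 libraries, so the groups overlapped. The averages of the members at DAOA, ARPP21 and FLRT2 overlapped as well. At PCDH7 the 7 members averaged 61.5, 60.9 and 65.2 in parental and 72.0, 78.4 and 75.2 in SAP30-KO1 libraries. All SAP30-KO1 values lay above the parental ones there, although none of the 7 was called, and PCDH7 lies on the short arm of chromosome 4, which is treated below. The largest single difference among them was 56.1 points, at chr4:28923314-28923848, where the percentile was 39.7, 15.5 and 20.7 in parental and 89.6, 85.9 and 68.8 in SAP30-KO1 libraries. The groups were apart at this site, but the adjusted p was 0.0721 (limma).

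Many members had another close by. Members within 50 kb of the next formed 328 runs that held 762 members (32.9%). The longest run had 7 members over 79.2 kb on chromosome 10, between DUSP5, a phosphatase that inactivates ERK, and SMNDC1, a splicing factor. Its members ranked from 43.7 to 94.4, and 5 of the 7 held an AP-1 motif. The mean over the run was 77.2, 76.8 and 70.1 in parental and 77.9, 73.3 and 63.4 in SAP30-KO1 libraries, which overlapped. A run of 5 between PGM1 and ROR1, an orphan receptor tyrosine kinase, covered 72.7 kb of chromosome 1 and averaged 76.8, 76.9 and 81.1 against 70.4, 87.2 and 70.4. Of the other runs of 5, the one beside PPP1R3C, a glycogen-targeting subunit of a phosphatase, averaged 63.5, 67.7 and 60.8 against 72.2, 79.8 and 82.4, so that all SAP30-KO1 libraries were above all parental ones. None of these 17 members was called.

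The percentile of a member chose its place in the ranking and is given as a description. Members had a median percentile of 75.7, 71.2 and 72.6 across parental replicates and of 71.0, 78.2 and 75.2 across SAP30-KO1 replicates. All sites found in all 6 libraries had medians of 75.5, 70.5 and 73.2, and of 69.6, 78.0 and 73.4, which differed from the members by at most 1.80 points. Ordered by their mean percentile and cut into 10 equal parts, members of the first had mean percentiles from 92.3 to 100, and those of the last from 18.8 to 44.5. The AP-1 share was 51.7% in the first and 45.3% in the last. The TEAD share was 37.5% in the first and 22.8% in the last. Libraries of a group were far closer to each other at the top, near the upper bound of the scale, where the median standard deviation (SD) within a group was 2.43 points in the first of the 10 parts, than in the middle, where it was 13.2 in the fifth.

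The 2 highest members were repeated sequence beside gaps of the assembly. They lay 646 and 1490 kb from FAM72B and ZNF722, their nearest protein-coding genes. The site near FAM72B, chr1:121484829-121485377, was the strongest summit of every library, with scores of 122, 125 and 120 in parental and 132, 144 and 133 in SAP30-KO1 libraries. It ended 57 bp from a run of unknown bases. The site near ZNF722, chr7:61968894-61969425, had scores of 58.9, 68.8 and 71.5, and of 80.7, 83.8 and 80.6, and lay 1736 bp from such a run. Of its 24-base words, 89.9% occurred elsewhere in the genome, with a median of 8 copies. In the site near FAM72B 49.3% did. Scores of both sites were higher in all SAP30-KO1 libraries than in all parental ones, but scores of separate lists share no scale, and by rank both sites stood at or next to the top of every list.

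The third, near OTOL1, chr3:161571905-161572694, ranked between 99.76 and 99.96 in every library and held an AP-1 motif. The site near P3H2, a collagen prolyl hydroxylase, chr3:189655321-189655867, ranked between 99.66 and 99.97, and the site near FBN2, which encodes a fibrillin of elastic fibres, chr5:127563494-127564163, between 99.39 and 99.80. In the printed stretch of the FBN2 site the AP-1 and TEAD motifs overlap by 2 bases. The site near CARTPT, chr5:71146412-71147274, ranked 99.53, 99.71 and 99.86 in parental and 99.92, 99.93 and 99.92 in SAP30-KO1 libraries, and 69.1% of its words were repeated. Sites near TKT, a pentose phosphate enzyme, and CD83, an immunoglobulin-like surface protein, were also among the 10. The last pair, near ZFAT and EFR3A on chromosome 8, both held AP-1 motifs. At least 50% of the words were repeated in 96 members (4.15%), against 3.01% of all sites found in all libraries, and 1 further member shared a word with the mitochondrial genome.

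Next, the members were compared between parental and SAP30-KO1 cells, to ask whether loss of SAP30 moved intergenic sites that stayed open in both. The median difference, SAP30-KO1 minus parental, was 0.702 percentile points, against 0.171 over all sites found in all libraries. The median size of the difference was 8.78 points, against 8.26 over all those sites, and the median SD among single libraries of a group was 12.6. The percentiles were then turned into normal scores, the matching quantiles of a normal distribution, and tested over all 16314 sites with limma, and a site was called at a Benjamini-Hochberg adjusted p under 0.05. Of the members, 15 (0.649%) were called higher in SAP30-KO1, where 0.331% of all tested sites were, and 7 (0.303%) were called lower, where 0.208% were. At an unadjusted p under 0.05 there were 297 members (12.8%), against 10.4% of all sites. The 3 SAP30-KO1 values lay above all 3 parental values in 241 members (10.4%), against 8.58% of all sites, and below them in 168 (7.26%), against 7.08%. All 22 called members had ranges apart. The calls rested on how limma shares the spread among sites. Without a trend of the spread with the level, or on untransformed percentiles, neither fit called any of the 16314 sites, with 251 and 257 members at an unadjusted p under 0.05. When each library was left out in turn, 5 of the 22 were called in all 6 fits, among them those near ABCC9, ADCY8, ADGRL2 and CCKAR. In none of these fits were 6 called, those near GJD4, BAALC, DLX6, CEP126, TMPRSS15 and TRIM27.

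**Figure D3:**
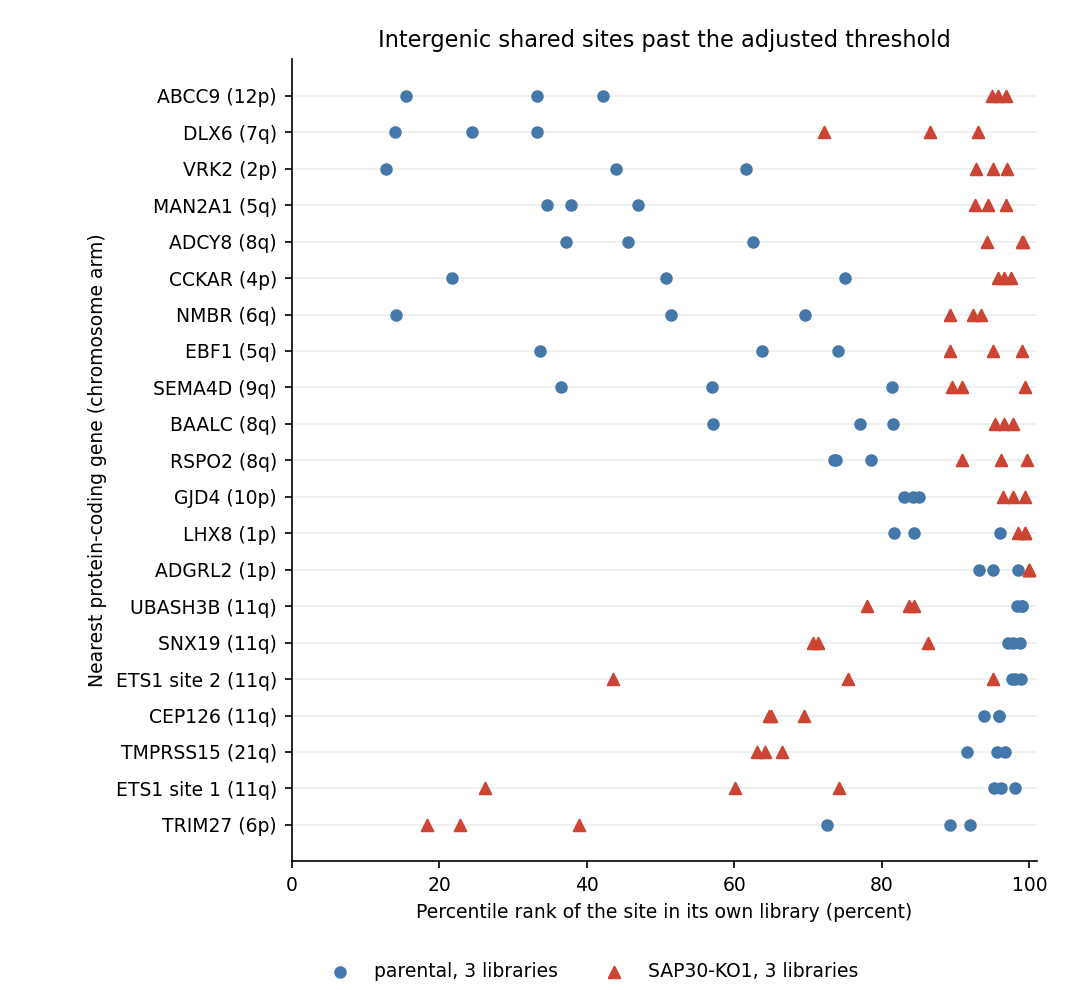
Percentile rank in each library (x axis, percent) of the called members that are named here (y axis, by nearest protein-coding gene and chromosome arm), parental libraries as circles and SAP30-KO1 libraries as triangles, 3 each. The groups do not overlap in any row. ETS1 site 1 starts at position 128231081 and site 2 at 128212182.

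Most of the members called higher moved from a middling rank to the top of the list. The largest difference was near ABCC9, a regulatory subunit of ATP-sensitive potassium channels, at chr12:22114981-22115910. Its percentile was 42.2, 15.5 and 33.2 in parental and 95.7, 96.8 and 94.9 in SAP30-KO1 libraries. The SAP30-KO1 libraries were tightly grouped and the normal score rose by 2.28 ± 0.37 (SE, adjusted p = 8.03e-04, limma). In this site 60.1% of the words were repeated elsewhere.

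Near MAN2A1, a Golgi mannosidase, chr5:109236518-109237145 had 37.9, 34.6 and 46.9 against 94.4, 96.8 and 92.6. Near VRK2, a serine/threonine kinase, chr2:57670810-57671669 had 61.6, 43.9 and 12.8 against 92.8, 96.9 and 95.0. Near CCKAR, the cholecystokinin A receptor, chr4:26501953-26502709 had 75.0, 21.7 and 50.7 against 96.6, 95.8 and 97.5. In each of these 3 sites the SAP30-KO1 libraries stayed within 5 points of each other, while the parental ones spread widely near VRK2 and CCKAR. Adjusted p-values were 0.00405, 0.00467 and 0.00405 (limma), and 65.8% of the words of the CCKAR site were repeated. Near ADCY8, a calcium-stimulated adenylyl cyclase, chr8:132300782-132301531 had 37.2, 45.6 and 62.5 against 99.13, 99.02 and 94.2, with the smallest adjusted p of any member, 4.08e-04 (limma). DLX6, a homeobox factor of limb and forebrain, and NMBR, the neuromedin B receptor, were also among the 8 largest differences of members called higher. The DLX6 site at chr7:96531082-96531906 had 24.5, 14.0 and 33.2 against 86.5, 93.0 and 72.2, and the NMBR site at chr6:141428509-141429241 had 14.2, 69.6 and 51.4 against 89.3, 92.3 and 93.5. Both passed narrowly, with adjusted p-values of 0.0458 and 0.0470 (limma). The nearest gene can be distant, since the VRK2, ADCY8 and NMBR sites lay 464, 248 and 968 kb from the start of the gene.

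The 7 further sites called higher were near ADGRL2, LHX8, GJD4, RSPO2, BAALC, SEMA4D and EBF1. ADGRL2 encodes an adhesion receptor of the latrophilin family, and its site at chr1:81640476-81641119 was high in both groups. It had 95.0, 98.4 and 93.2 in parental and 99.88, 99.95 and 99.96 in SAP30-KO1 libraries, the smallest called difference in points, 4.39. The corresponding scores were 16.5, 22.1 and 14.3 against 34.6, 46.0 and 41.6. The site near RSPO2, which encodes a secreted amplifier of WNT signalling, had 73.5, 78.5 and 73.8 against 99.62, 90.9 and 96.2. The site near EBF1, a factor of B-cell and fat-cell development, lay 420 kb from the gene and had 63.7, 74.0 and 33.6 against 89.2, 99.0 and 95.0. AP-1 motifs were in 10 of the 15 sites called higher and in 3 of the 7 called lower, against 50.8% of all members.

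Among members called lower, 5 of 7 were on the long arm of chromosome 11. Near ETS1, an ETS family transcription factor, there were a pair of sites. At chr11:128231081-128231901, 102 kb from the start site, the percentile was 98.0, 96.2 and 95.2 in parental and 74.2, 60.1 and 26.2 in SAP30-KO1 libraries. Parental libraries agreed and SAP30-KO1 libraries did not, and the normal score fell by 1.74 on average, with an SE of 0.34 (adjusted p = 0.00630, limma). At chr11:128212182-128213347 it was 98.9, 97.6 and 98.1 against 95.0, 75.4 and 43.6, where SAP30-KO1 replicate 1 lay just below the parental libraries. Near CEP126, a centrosomal protein, chr11:101881583-101882447 had 95.9, 93.8 and 95.9 against 69.4, 64.7 and 65.0. Near SNX19, a sorting nexin, chr11:130968716-130969434 had 98.7, 97.8 and 97.1 against 71.4, 86.2 and 70.7. Near UBASH3B, a tyrosine phosphatase, chr11:122513070-122513710 had 99.04, 99.0 and 98.3 against 78.0, 84.4 and 83.7, with an adjusted p of 0.00707 (limma).

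Off that arm 2 members were called lower. The largest fall of any member was near TRIM27, a ubiquitin ligase, at chr6:28784621-28785424. The percentile was 72.5, 89.2 and 91.9 in parental and 22.8, 18.4 and 39.0 in SAP30-KO1 libraries (adjusted p = 0.0486, limma). This is the site with the B-box letters of tRNA genes. The annotation used here holds 0 nuclear tRNA genes, so a member can contain one and still count as intergenic. GGTTCGA was in the 301 bp around the midpoint of 15 members (0.649%), against 0.805% of all sites found in all libraries. Of these 15, 8 were lower and 7 higher, and after the TRIM27 site the next largest fall was 10.6 points. The other site, at chr21:20205014-20205787, lay 347 kb from TMPRSS15, the gene of enteropeptidase. It had 96.7, 91.5 and 95.6 against 66.4, 63.1 and 64.2 (adjusted p = 0.0470, limma). A further 4 sites had ranges apart and large falls but were not called, near ARSJ, ZP4, RNF144B and NRP1. NRP1 encodes a receptor shared by semaphorins and VEGF, and its site at chr10:33434525-33435177 had 71.5, 79.9 and 30.4 against 18.1, 17.2 and 8.75 (adjusted p = 0.321, limma).

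The chromosome arm of a member went together with its difference. On the long arm of chromosome 11, 82.5% of the 63 members were lower in SAP30-KO1, with a median difference of −16.7 points. The medians of those members were 84.7 to 86.8 in parental and 66.6 to 66.7 in SAP30-KO1 libraries, and 31 members had ranges apart downwards and none upwards. Other sites of that arm found in all libraries, 391 in number, had a median difference of −14.6. On the short arm of chromosome 1 the 89 members had a median difference of 9.33 points and 28 had ranges apart upwards, 1 downwards. Its other sites had a median of 4.48. On the short arm of chromosome 4 the 51 members had a median of 7.91, with 10 apart upwards and 1 downwards, and its other sites a median of 7.49. These were the only arms, among 29 with 20 or more members, where the library medians of the groups did not overlap. For 1 arm, 3 against 3 libraries cannot go below p = 0.10 in an exact permutation test, and 29 arms were looked at. The long arm of chromosome 7 overlapped, although only 28.6% of its 56 members were lower, with 9 apart upwards and 1 downwards. Without the long arm of chromosome 11 the median difference of the remaining 2250 members was 1.03. When the scores were ranked within each arm, 19 of all 16314 tested sites were called. Of the members, 5 were called higher and 1 lower. Among the 6 were the sites near ABCC9, ADCY8, CCKAR, MAN2A1 and TMPRSS15. The called members of the 3 arms with library medians apart, other than the CCKAR site, are those near ADGRL2 and LHX8 and the 5 on chromosome 11. For them the shift of the arm and the change at the site cannot be told apart. Off these 3 arms, the sites near GJD4, RSPO2, BAALC, SEMA4D, EBF1, NMBR, VRK2, DLX6 and TRIM27 also lost their call within the arm. Why they lost it was not tested.

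**Figure D4:**
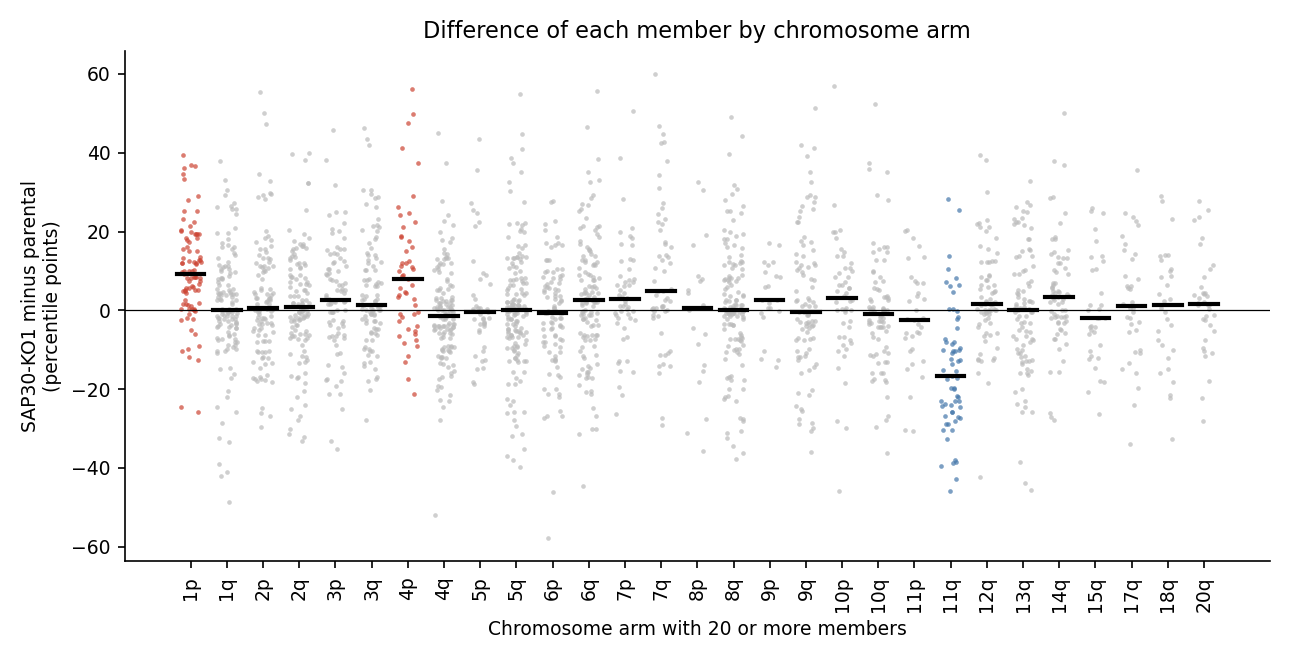
Difference in percentile points, SAP30-KO1 minus parental (y axis), of every member on the 29 arms with 20 or more members (x axis; p, short arm; q, long arm). Each point is a member and each bar the median of its arm; colours mark the 3 arms whose library medians did not overlap, with medians of 9.33, 7.91 and −16.7.

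Members that hold a given motif were next compared with the other members inside each library. The 313 members with a RUNX motif stood at −0.291, −3.26 and −0.661 points against the other members in parental libraries, and at 3.06, 2.04 and 2.07 in SAP30-KO1 libraries. The groups did not overlap. Around the summit, the 782 gene-body sites with a RUNX motif did overlap. They stood at 0.317, 1.29 and 0.0105 in parental and 1.93, 1.36 and 0.543 in SAP30-KO1 libraries. Around the midpoint, 836 gene-body sites held the motif, and there the groups were apart as in members. The values were 1.07, 1.29 and 0.0612 in parental and 1.76, 1.80 and 1.83 in SAP30-KO1 libraries. RUNX factors govern blood, bone and breast epithelial genes. Members with the CTCF core motif, 36 in number, stood at 0.323, −2.55 and −0.248 points against the others in parental and at −9.58, −4.13 and −5.69 in SAP30-KO1 libraries. The 63 gene-body sites with that motif showed −3.51, −5.22 and −4.65 in parental and −10.7, −9.59 and −7.92 in SAP30-KO1 libraries, whereas the 102 promoter sites with it overlapped between the groups, at −0.884, −2.70 and −5.44 against −2.64, −0.626 and −2.08.

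Members with an AP-1 motif stood at 1.62, −0.338 and 0.783 points in parental and at 1.83, 2.02 and 2.20 in SAP30-KO1 libraries. The mean difference between the groups was 1.33 points. The 3017 gene-body sites with an AP-1 motif were also apart, at 1.08, 1.57 and 1.40 against 3.49, 2.46 and 2.97. Their mean difference was 1.62 points, while promoter sites with the motif overlapped between the groups. Members with a TEAD motif stood higher in parental libraries, at 2.34, 2.62 and 1.89, than in SAP30-KO1 libraries, at 1.21, 1.64 and 1.84, a mean difference of −0.716 points. Without the long arm of chromosome 11 the TEAD values overlapped, at 2.27, 2.36 and 1.90 in parental and 1.56, 1.73 and 1.99 in SAP30-KO1 libraries, with a mean difference of −0.413. For 7 of the 8 motifs the library values of the groups did not overlap, forkhead being the exception. Without the long arm of chromosome 11 it was also so for 7 of 8, but these were not the same 7, since forkhead was then apart and TEAD overlapped. With windows centred on the midpoint it was so for 5 of 8 in members, among them AP-1, TEAD, RUNX and CTCF. RUNX members then stood at 1.07, −1.68 and 0.825 in parental and 2.93, 2.80 and 2.68 in SAP30-KO1 libraries. Their parental values were negative in replicate 2 only. CTCF members stood at 2.52, 0.836 and 3.13 against −6.28, −2.46 and −4.65. Around the summit the library values were apart for 2 of 8 motifs in gene-body sites and 0 of 8 in promoter sites. Around the midpoint they were apart for 6 of 8 and 2 of 8. The count was thus higher in members than in gene-body sites around the summit, and lower around the midpoint. For members off the long arm of chromosome 11 the count around the midpoint was 4 of 8. Over sites of all kinds found in all libraries, sex chromosomes left out, it was 3 of 8 with either window. Motifs share members, and no p is given for a mean over members; 3 against 3 libraries cannot go below p = 0.10 in an exact permutation test.

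**Figure D5:**
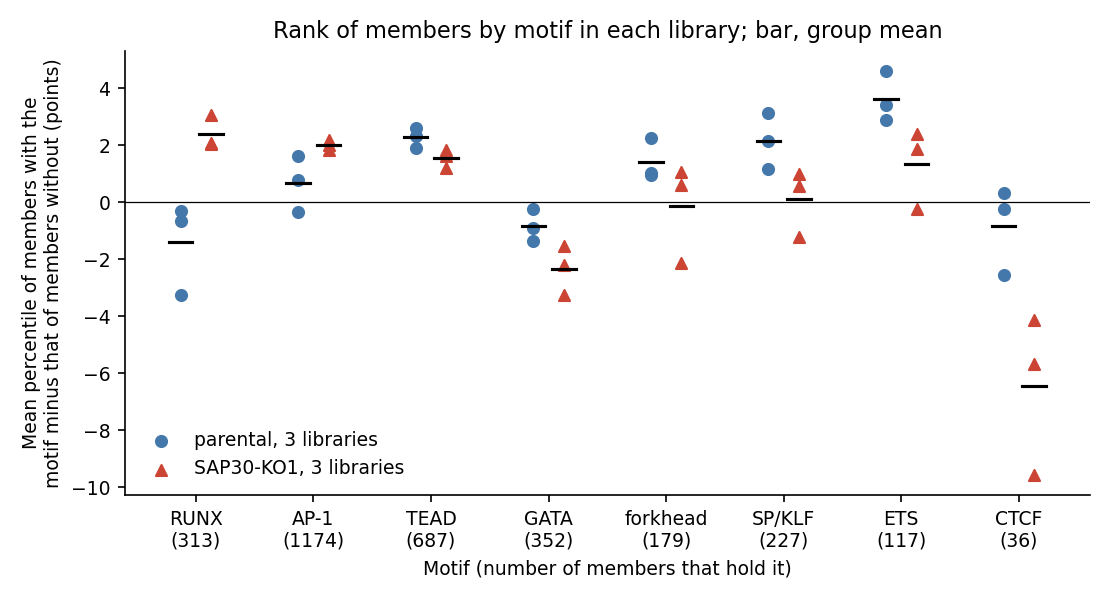
Mean percentile of members with a motif minus that of members without it, in points (y axis), for 8 motifs with the number of members that hold each (x axis). Circles are the 3 parental and triangles the 3 SAP30-KO1 libraries, and bars are group means. With motifs searched around the median summit, CTCF lies lowest in SAP30-KO1, from −9.58 to −4.13, and RUNX changes from below to above 0.

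Finally, members nearest to genes of several groups were described, with their counts beside the medians above. Of 10 genes that the study follows, CLDN1, a tight junction protein, was alone in having a member nearest to it. That site, chr3:189949477-189950311, lay 81.1 kb from the start of the gene and held an AP-1 motif. Its percentile was 66.1, 19.9 and 26.0 in parental and 63.9, 68.0 and 59.0 in SAP30-KO1 libraries. The groups overlapped through parental replicate 1, and the adjusted p was 0.631 (limma). Of 23 genes of angiogenesis and growth factors, 11 had 23 members. None was called, 9 were higher and 14 lower, and the median difference was −2.55 points. Endothelin 1 (EDN1), a vasoconstrictor peptide, had a site at chr6:12348627-12349271 that ranked 98.9, 98.7 and 99.63 against 99.23, 99.37 and 98.0. One of the TGFB2 sites, chr1:218879265-218880005, had 99.42, 98.1 and 99.79 against 95.6, 97.7 and 97.1. Its ranges were apart, with an adjusted p of 0.314 (limma). The site near HBEGF, an EGF receptor ligand, had 81.2, 79.1 and 80.9 against 49.7, 61.3 and 60.7, also apart, with an adjusted p of 0.551 (limma). Of all members, 7.26% were apart and lower and 10.4% apart and higher, against 7.08% and 8.58% of all sites found in all libraries. In all, 3 sites of this group were apart and lower and 1 apart and higher. The latter, near CCN1, a matricellular protein, at chr1:86094429-86095114, had 89.1, 91.3 and 89.5 against 92.5, 96.7 and 95.5, with an adjusted p of 0.671 (limma). The arm of this site, the short one of chromosome 1, had 28 of 89 members apart upwards and 1 downwards. Its median difference was 9.33 points.

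The remaining groups gave no call. Of 25 genes of motility, adhesion and matrix, CD44, CDH2, ITGA3 and CLDN1 had 5 members, 4 of them higher, with a median difference of 7.02. A member 56.1 kb from CD44, the hyaluronan receptor, had 91.5, 76.7 and 83.4 against 84.2, 93.5 and 94.9, and one 27.2 kb from it had 80.7, 55.3 and 50.7 against 41.4, 49.3 and 45.1. The first overlapped between the groups, and the second was apart and lower in SAP30-KO1 (adjusted p = 0.781, limma). The site near ITGA3, an integrin subunit, was apart in the other direction, with 58.7, 69.4 and 46.5 against 74.0, 73.1 and 78.0 (adjusted p = 0.724, limma). AP-1 and immediate early factors had 8 members near KLF4, KLF5, KLF6, FOSL2 and BATF3, with a median difference of −5.34. Mesenchymal and developmental factors had 18 members near 7 of 20 genes, with a median of −1.55. Of the 18, 14 were lower, whereas 53.9% of all members were higher. Around SOX9 alone lay 7 of the 18. The 18 also included several near TFAP2A, an AP-2 factor of ectoderm. Of these, chr6:10237664-10238475 ranked 99.02, 98.7 and 95.0 against 94.2, 99.34 and 96.8. Cytokines and chemokines had 3 members. The site near CSF2, which encodes GM-CSF, at chr5:131430088-131430805 had 85.1, 81.5 and 89.8 against 97.8, 97.0 and 95.1. Its SAP30-KO1 values lay above all parental ones, with an adjusted p of 0.228 (limma). HAS2, which makes hyaluronan and is among the 6 genes nearest to most members, had 8 on the long arm of chromosome 8, with ranks from 35.5 to 98.5. They averaged 65.9, 61.4 and 66.9 in parental and 72.3, 67.6 and 74.5 in SAP30-KO1 libraries, all of the latter above the former, and none of the 8 was called.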

How the data were processed

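ATAC-seq summit lists of 3 parental and 3 SAP30-KO1 libraries were used, grouped by the labels. The authors trimmed single-end reads with Trim Galore (0.4.5), aligned them to hg19 with Bowtie2 (2.3.3.1), removed duplicates (Picard), and called peaks in each library using MACS2 (2.1.0) at a q value of 0.05. Shifting, blacklist and mitochondrial handling are not given in the sources used here. The deposited score is the −log10 of the q value, read from the lowest scores of 1.31 to 1.33. Lists hold no reads, so depth is unknown and no counting interval is given.

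The highest score of each site per library was ranked within its list, and normal scores of the ranks were tested with limma 3.58.1 (R 4.3.3; lmFit, eBayes with trend; Benjamini-Hochberg) over the 16314 sites found in all 6 libraries. The fit was tested on simulated data. Start sites and gene bodies came from GENCODE release 44 mapped to GRCh37, including noncoding genes. A promoter site was within 1 kb of a start site. Repeats were counted as 24-base words found elsewhere in GRCh37. Motifs and sequences were read from GRCh37 with pysam 0.24.0, and the CTCF core was searched as a degenerate pattern. Named sites were the 10 highest-ranked, all called sites, the largest differences among called sites in each direction (4 lower on the long arm of chromosome 11 and 6 elsewhere, filled up with uncalled sites whose ranges were apart where fewer were called), sites of the 6 genes nearest to most members, of gene lists and of the 3 longest runs, and those beside the 10 kb limit. Values and sequence of 1 called site are not reported here, though counts include it. The members, lists and rules were chosen with earlier results of these data known. Alternatives were other scales, windows, distances, thresholds, list lengths, arms, repeats, libraries left out in turn and a replicate block.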

Additional observations from a re-analysis of the deposited data

How the results depend on the processing

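The counts of called members, 15 higher and 7 lower, moved most. They were 0 and 0 with untransformed percentiles and 0 and 0 without an intensity trend, 25 and 13 with log2 scores, 6 and 2 with windows of 100 bp (1520 members), 2 and 0 over 50 kb from every start site (677 members) and 5 and 1 with ranks within each chromosome arm. With a q value of 0.0001 or less 4 were lower, and without the long arm of chromosome 11 2 were lower. The counts over 50 kb, without that arm and without many repeated words reused the main fit, so no call could change there. Among all tested sites, 88 were called in the main fit, 177 with log2 scores, 127 with the replicate block and 19 within arms. Leaving out each library in turn gave 7 to 11 higher and 0 to 3 lower. The lowest count higher came without SAP30-KO1 replicate 2, and the count lower was 0 when parental replicate 1 or 2 was left out, 2 when parental replicate 3 was and 3 for each SAP30-KO1 library. Over 419 settings of single sites, 149 lost the call, 0 reversed, and 270 kept direction and status, called or not. The sites were the 22 called ones and the uncalled ones near ARSJ, ZP4, RNF144B and NRP1. Those 4 never gained a call, so their settings are among the 270, as are settings that reused the main fit. The median difference of all members stayed between 0.0273 and 2.31 points, within the spread of 3.04 between library medians, and that of members on the long arm of chromosome 11 between −19.3 and −7.76. The share with an AP-1 motif was 18.2% within 50 bp and 63.9% within 250 bp of the summit, where all sites had 10.7% and 44.7%, and 56.7% around the midpoint. The causes were not tested. Same-numbered libraries did not deviate together (correlations of −0.0149, −0.0085 and −0.0037), and with a replicate block 21 members were higher and 8 lower, all 22 calls among them. Members limited to sites without many repeated words, the centred scores and the midpoint were chosen after seeing the data. Masked repeats were not run, because the reference used here is unmasked.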
